A study of Mus musculus with 12 samples.

Results

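Mammalian testis expresses a set of autosomal genes that arose by reverse transcription of messenger RNAs from X-linked genes. Promoters of 7 such retrogenes, Pgk2, Pdha2, Cetn1, Rpl10l, Rbmxl2, Cstf2t and Utp14b, were examined for calls of transcription initiation in 3 substages of meiotic prophase I. They are 7 of the 21938 protein-coding genes that GENCODE M21 places on chromosomes 1 to 19, X and Y. A peak was assigned to a gene when its nearest edge lay under 1000 bp from any annotated transcription start site (TSS) of that gene on mm10 (GRCm38). This rule took 49 of the 178062 deposited peaks, namely 19 of 71107 for leptonema/zygonema, 16 of 68352 for pachynema and 14 of 38603 for diplonema.

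leChRO-seq, a chromatin run-on assay with sequencing, labels RNA that engaged polymerases extend on isolated chromatin, and so reads nascent rather than stored transcripts. The cells were mouse spermatocytes enriched from testes of adult wild-type animals by STAPUT, a form of velocity sedimentation. The 12 libraries comprise 4 of leptonema/zygonema (collected as 1 fraction), 4 of pachynema and 4 of diplonema. No group had a treatment or a mutant allele. The study used mice of the C57Bl/6J or DBA/2J background and names DBA/2J for its separate drug injections. The background of each library is not given. The 4 libraries of a substage were pooled before peaks were called with dREG, a machine-learning tool that recognises the run-on signature of initiation, so each substage has 1 list, no replicate spread and no test against another substage. Read counts were not part of the lists, and the number of reads behind a single call is not known.

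During pachynema the X and Y chromosomes of male meiocytes are enclosed in the sex body and transcriptionally silenced, a process known as meiotic sex chromosome inactivation. Retrocopies of X-linked housekeeping genes that landed on autosomes lie outside this domain, and several are known to encode testis forms of enzymes or RNA-binding proteins. A retrocopy usually lacks the introns of its parent and, because only the messenger RNA was copied, also the parental promoter.

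The stretches upstream of 4 of these genes are shown because their start sites were marked in different ways. Pgk2 has a start inside its highest-scoring peak in every list, Pdha2 has a start outside its highest-scoring peaks in every list, Cstf2t is covered within an intron of another gene, and Rbmxl2 is spread over several peaks. RefSeq promoter windows of 300 bases (250 before the start, GRCm38.p6) were found for 6 of the 7 genes, and Cetn1 was not among them. Each sequence below is written 5′ to 3′ along the gene and holds the 200 bases directly before the annotated start that lies farthest upstream. The positions are chr17:40208641-40208840 on the minus strand for Pgk2, chr3:141212356-141212555 on the minus strand for Pdha2, chr19:31082637-31082836 on the plus strand for Cstf2t and chr7:107209245-107209444 on the plus strand for Rbmxl2. The RefSeq start of Pgk2 (40208609) lies inside the GENCODE exon, which begins at 40208640. Capitals mark motif matches that lie wholly inside a stretch. A CNGTTG match of Cstf2t that runs over the end of its stretch is left in lower case.
Pgk2: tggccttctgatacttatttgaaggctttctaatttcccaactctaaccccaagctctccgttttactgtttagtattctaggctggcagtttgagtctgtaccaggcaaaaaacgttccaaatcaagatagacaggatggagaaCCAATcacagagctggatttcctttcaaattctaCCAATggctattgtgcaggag
Pdha2: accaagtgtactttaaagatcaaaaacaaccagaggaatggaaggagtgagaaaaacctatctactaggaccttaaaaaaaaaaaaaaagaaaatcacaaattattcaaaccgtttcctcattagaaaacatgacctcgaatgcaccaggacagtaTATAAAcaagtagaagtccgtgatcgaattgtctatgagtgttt
Cstf2t: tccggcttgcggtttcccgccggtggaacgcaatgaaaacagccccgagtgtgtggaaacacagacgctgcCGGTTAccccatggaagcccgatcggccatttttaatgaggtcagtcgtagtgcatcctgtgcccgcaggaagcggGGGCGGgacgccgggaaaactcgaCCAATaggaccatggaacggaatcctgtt
Rbmxl2: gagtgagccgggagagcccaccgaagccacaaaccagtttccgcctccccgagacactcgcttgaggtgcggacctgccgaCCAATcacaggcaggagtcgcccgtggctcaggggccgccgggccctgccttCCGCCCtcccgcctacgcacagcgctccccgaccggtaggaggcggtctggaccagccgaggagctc

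The motifs searched on both strands of the 300-base windows were CNGTTG and, for the same MYB family, CNGTTA, then TGACGTCA of the cyclic AMP response with its contained part TGACG, the RFX family words GTTGCCA (first form) and GTTGCTA (second form), the TATA box TATAAA, the CCAAT box and the GC box GGGCGG, where N is any base. Positions of matches count from 0 at the RefSeq start and are negative before it. Pdha2 was the only 1 of the 6 windows with TATAAA, at -44 to -39, and 13.6% of all 32851 windows hold that motif. Pgk2 held CCAAT at -86 to -82 and at -52 to -48. Rbmxl2 held CCAAT at -119 to -115 and GGGCGG, on the opposite strand, at -67 to -62.

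Cstf2t was the window with the most matches, with CNGTTA at -133 to -128, GGGCGG at -57 to -52, CCAAT at -33 to -29 and CNGTTG at -9 to -4, and with a further CNGTTG and a further GGGCGG after the start. CCAAT and GGGCGG were each found in 3 of the 6 windows, against 37.4% and 35.7% of all windows. CNGTTG was found in 1 of 6 (35% of all windows) and CNGTTA in 2 of 6, Cstf2t and Rpl10l (23.3% of all windows). The cyclic AMP element and its part had no match in the 6 windows and were held by 1.79% and 20.8% of all windows, and the first and second RFX words had none either (4.38% and 3.66% of all windows). A match is a description of letters and not evidence of a bound factor.

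Base composition separated the windows widely. Pdha2 was AT-rich, with 29.7% G+C and 4 CG dinucleotides, and lay at percentile 0.9 of all windows for G+C. The Utp14b window, which lies at the second of its annotated starts, had 75% G+C and 40 CG dinucleotides. Rbmxl2 had 69.3% and 29, Cstf2t 56.7% and 26, Rpl10l 52% and 13, and Pgk2 43% and 4, beside medians of 52.7% and 7 over all windows.

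All 7 retrogenes had an initiation call in every one of the 3 substages. By the same rule 60.7% of the 20807 autosomal protein-coding genes were called in leptonema/zygonema, 61.2% were in pachynema and 52.3% were in diplonema, and 50.2% were called in all 3 lists. A gene with more annotated starts has more places at which a call counts, and each retrogene has only 1 or 2 starts. Among the 8159 autosomal protein-coding genes with 1 or 2 starts, the shares were 38.3%, 38.5% and 31.2% for the 3 substages in the same order. In these lists no retrogene therefore first gained its call after leptonema/zygonema, and none lost it by diplonema. The study describes the fractions as enriched rather than pure, with possible admixture of germ cells from earlier or later steps. A call thus does not date initiation to its substage. For Utp14b the highest-scoring peak is shared with Acsl3, as described with that gene.

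The call was less uniform when a peak had to cover a TSS itself. All 7 retrogenes met this in leptonema/zygonema (57% of autosomal protein-coding genes). In pachynema (57.4%) and in diplonema (48.6%) 6 of 7 met it, and the exception in both was Pdha2.

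**Figure D1:**
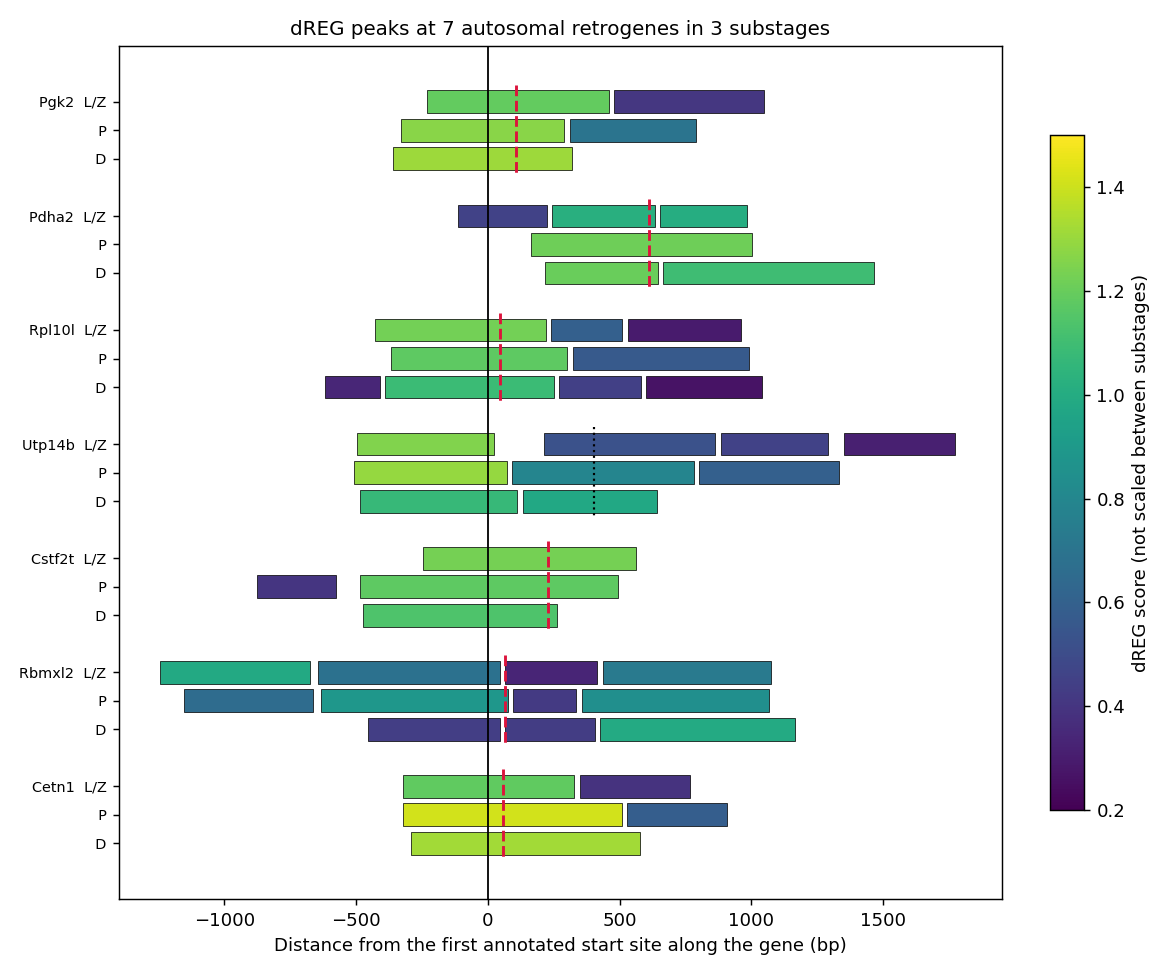
Positions of the 49 peaks along each retrogene in leptonema/zygonema (L/Z), pachynema (P) and diplonema (D), with distance from the first annotated start in bp on the horizontal axis and colour for the dREG score. The solid line is the first annotated start, dashed lines mark the first coding base (for Utp14b it lies beyond the plot) and the dotted line marks the second Utp14b start. Peaks of Pdha2 in pachynema and diplonema begin 165 and 215 bp after the start, and those of Rbmxl2 extend to both sides of it.

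The dREG score rises with the strength of the initiation signature, has no fixed range and was not scaled between substages, so it was ranked within a list and does not measure transcript abundance. The first rank given below is among the highest promoter scores of all protein-coding genes called in that list. Because fewer genes were called in diplonema, a second rank was taken among the 10851 protein-coding genes called in all 3 lists, for which 50 is the middle of each substage.

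Pgk2 encodes the testis form of phosphoglycerate kinase, a glycolytic enzyme. It is a single-exon gene at chr17:40207015-40208640 on the minus strand, and its nearest other protein-coding start, that of Crisp3, is 33648 bp away. The highest-scoring peak covered the TSS in each list, scoring 1.19 in leptonema/zygonema (chr17:40208181-40208870), 1.269 in pachynema (chr17:40208351-40208970) and 1.311 in diplonema (chr17:40208321-40209000). These scores lay at percentiles 73.2, 89.8 and 99.3 of the called promoters of their lists. In the common set of genes the ranks were 67.9, 87.5 and 99.3, so Pgk2 stood highest in diplonema. A lower-scoring peak inside the gene was present in leptonema/zygonema (dREG score 0.404) and pachynema (0.698), and the diplonema list had 1 peak only.

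Pdha2 encodes the testis form of the alpha subunit of pyruvate dehydrogenase, which links glycolysis to the citric acid cycle. It is a single-exon gene at chr3:141210004-141212355 on the minus strand, 252861 bp from the nearest other protein-coding start, that of Unc5c. In leptonema/zygonema 3 peaks were assigned, and that over the TSS had the lowest dREG score, 0.458, against 1.019 and 1.005 for the peaks downstream. The pachynema list had a single peak of 840 bp with a score of 1.215, which started 165 bp after the TSS. The diplonema list had peaks of 1.203 and 1.098, starting 215 and 665 bp after it.

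The centre of the highest-scoring Pdha2 peak lay 415, 435 and 515 bp after the TSS in the 3 substages, and the coding sequence starts 610 bp after it. This peak held the first coding base (chr3, 141211745) in every list. The highest score ranked at percentile 46.5 of called promoters in leptonema/zygonema, at 80.1 in pachynema and at 94.5 in diplonema, and at 36.8, 75.7 and 94.3 in the common set. The range of 57.5 points in the common set was the widest among the 7 retrogenes when Utp14b is taken by the peak it shares with Acsl3 (described with that gene). The TATAAA match shown above lies upstream of these peaks, and it was covered by a peak in leptonema/zygonema only, which began at -115 bp from the start.

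Rpl10l encodes a ribosomal protein closely related to the X-encoded Rpl10 of the large subunit. It is a single-exon gene at chr12:66283379-66284401 on the minus strand, 186657 bp from the start of Mdga2. The highest-scoring peak covered the TSS in each list, with dREG scores of 1.224 (chr12:66284181-66284830), 1.177 (chr12:66284101-66284770) and 1.084 (chr12:66284151-66284790) in leptonema/zygonema, pachynema and diplonema. The corresponding ranks were 79.5, 72.9 and 81.9 among called promoters and 75.5, 67.0 and 81.1 in the common set, a range of 14.1 points. Further peaks with scores from 0.264 to 0.596 lay over the transcribed part in all 3 lists. Diplonema alone had a separate peak upstream, with a score of 0.341, whose edge was 410 bp before the TSS.

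Utp14b encodes a nucleolar protein of the small-subunit processome, which matures ribosomal RNA, and it is required for spermatogenesis. It differs from the other members in having 3 to 4 exons, with the retrocopied coding sequence starting 6349 bp after the first TSS, at chr1:78658038-78671512 on the plus strand. It lies within Acsl3, an acyl-CoA synthetase gene of the same strand, and a start of Acsl3 (78657883) is 155 bp from the first start of Utp14b (78658038). The highest-scoring peak covered both starts in each list, with scores of 1.255, 1.296 and 1.07 in leptonema/zygonema, pachynema and diplonema. Initiation at Utp14b and at Acsl3 cannot be told apart in this peak.

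A separate Utp14b peak covered the second start (78658440) and no start of Acsl3, although it too begins under 1000 bp from one. It had scores of 0.526, 0.79 and 0.981 in leptonema/zygonema, pachynema and diplonema. These scores lay at percentiles 43.2, 69.8 and 88.2 of all peaks of their lists, and at 4.7, 15.6 and 66.6 of the promoter scores in the common set, a range of 61.9 points that exceeds that of Pdha2. No peak lay in the coding sequence itself, and the nearest edge of any peak was 4577 bp from the first coding base in leptonema/zygonema, 4557 bp in pachynema and 5707 bp in diplonema. For the highest-scoring peak the ranks in the common set were 81.8, 91.4 and 79.2.

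Cstf2t encodes the tau form of the cleavage stimulation factor subunit that binds RNA downstream of polyadenylation sites. It is a single-exon gene at chr19:31082837-31087069 on the plus strand, within an intron of Prkg1 on the opposite strand, and the nearest start of Prkg1 is 301385 bp away. A peak covered the TSS in each list, with scores of 1.227 (chr19:31082591-31083400), 1.179 (chr19:31082351-31083330) and 1.136 (chr19:31082361-31083100) in leptonema/zygonema, pachynema and diplonema. These peaks hold the whole CCAAT and GC box matches shown before the start. Their ranks were 80.1, 73.4 and 88.1 among called promoters and 76.2, 67.5 and 87.6 in the common set, so the raw score was lowest where the rank was highest. A peak upstream, 577 bp before the TSS with a score of 0.4, was called in pachynema, and it was the only 1 of the 49 peaks without an overlap in either other list, beside 7.21% of the 79891 promoter peaks of autosomal protein-coding genes in the 3 lists.

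Rbmxl2 encodes hnRNP G-T, a germ cell RNA-binding protein that acts in splicing. It is a single-exon gene at chr7:107209445-107210916 on the plus strand, 22317 bp from the start of Nlrp14. It had 4, 4 and 3 assigned peaks in leptonema/zygonema, pachynema and diplonema, which spanned 2320, 2220 and 1620 bp. The peak over the TSS had scores of 0.684, 0.887 and 0.438, and only in pachynema was it the highest. In leptonema/zygonema the highest-scoring peak was centred at -955 bp from the TSS (score 0.986), and in diplonema 905 bp after it, within the coding sequence (score 0.988).

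The highest score of Rbmxl2 was the lowest among the 7 retrogenes in every list, with Utp14b taken by the peak it shares with Acsl3. It ranked at 42.6, 36.0 and 69.0 among called promoters and at 32.5, 23.5 and 67.7 in the common set. The peak at -955 bp in leptonema/zygonema overlapped a pachynema peak of score 0.656, and no peak was called there in diplonema.

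Cetn1 encodes a centrin, a calcium-binding protein of centrioles and of the sperm connecting piece. It lies on chromosome 18 from 9615524 to 9619478 on the minus strand, has starts at 9619478 and 9619469, and is 88117 bp from the start of Colec12. The peak over both starts had scores of 1.182, 1.413 and 1.319 in leptonema/zygonema, pachynema and diplonema. In pachynema and diplonema it was the highest-scoring peak of the 7 retrogenes, at percentiles 99.6 and 99.5 of called promoters, against 71.8 in leptonema/zygonema. Ranks in the common set were 66.3, 99.5 and 99.5. A further peak inside the gene had scores of 0.392 in leptonema/zygonema and 0.585 in pachynema, and the single diplonema peak of the gene, 870 bp wide, overlapped part of both.

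**Figure D2:**
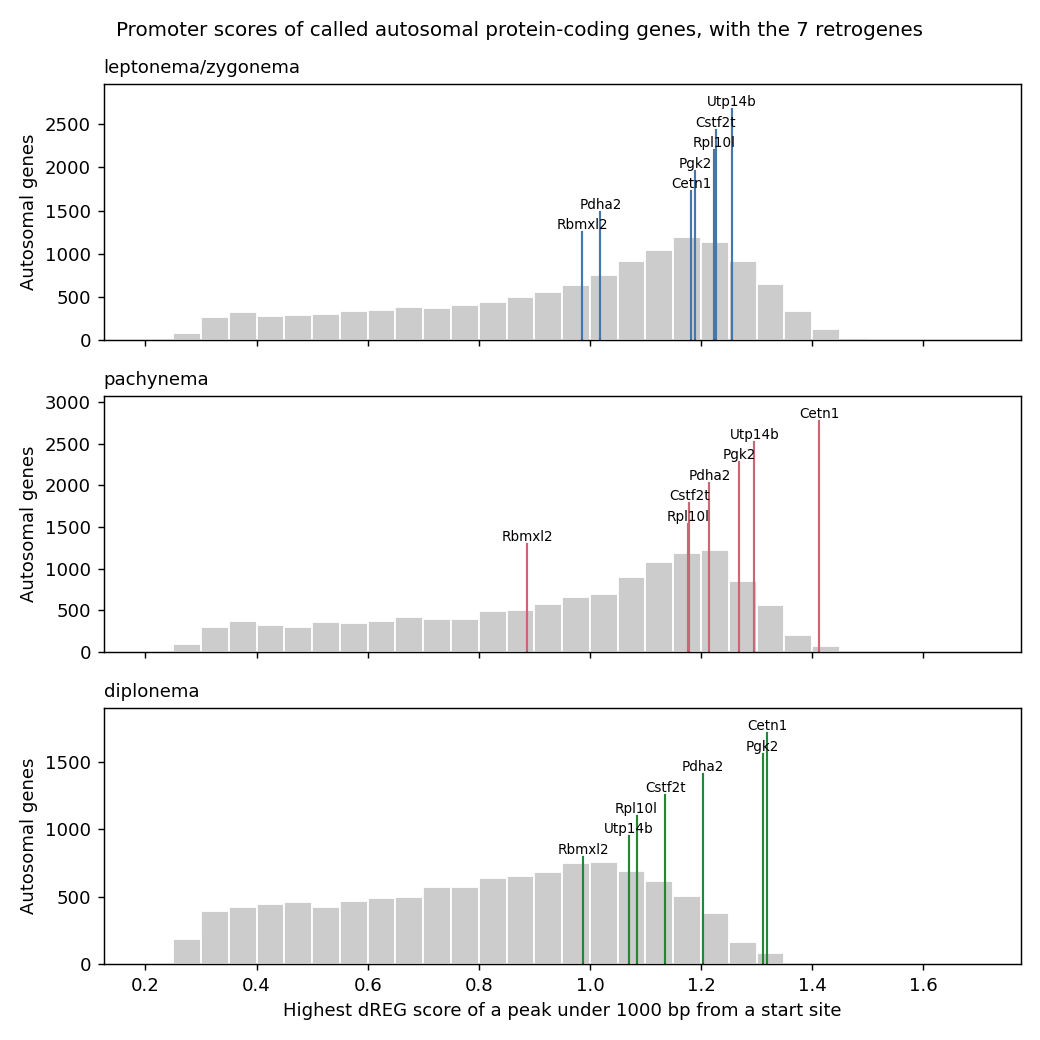
Histograms of the highest dREG score within 1000 bp of a start, for autosomal protein-coding genes called in each substage, with a labelled line for each of the 7 retrogenes (line heights carry no value). Horizontal axis, dREG score, which is not scaled between substages; vertical axis, number of genes. In diplonema Cetn1 (1.319) and Pgk2 (1.311) lie at the upper end. Rbmxl2 has the lowest retrogene score in every panel, with Utp14b taken by the peak it shares with Acsl3.

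Considered together, the retrogenes had a median rank in the common set of 67.9, 75.7 and 87.6 in leptonema/zygonema, pachynema and diplonema, against 50 for all genes of that set. The lowest retrogene lay at 32.5, 23.5 and 67.7 in these substages, and 0, 2 and 3 of the 7 reached percentile 90. In diplonema the order from the top was Cetn1, Pgk2, Pdha2, Cstf2t, Rpl10l, Utp14b and Rbmxl2. In leptonema/zygonema the order was Utp14b, Cstf2t, Rpl10l, Pgk2, Cetn1, Pdha2 and Rbmxl2. The place of Utp14b rests on the peak shared with Acsl3. Scored by its second start instead, an alternative chosen after the data were seen, it was the lowest of the 7 in every list, the median ranks of the retrogenes were 66.3, 67.5 and 87.6, and 0, 1 and 3 of the 7 reached percentile 90. With 1 list per substage, none of these differences in rank can be set against a spread between replicates.

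Overlap of the retrogene peaks between lists was counted beside that of all promoter peaks of autosomal protein-coding genes. All 19 leptonema/zygonema peaks of the retrogenes overlapped a pachynema peak and 15 of 19 a diplonema peak, by at least 1 bp (89.2% and 70.3% of all promoter peaks). Of the 16 pachynema peaks 15 overlapped a leptonema/zygonema peak and 13 a diplonema peak (86.7% and 72.6%), and of the 14 diplonema peaks 14 and 13 overlapped one in leptonema/zygonema and pachynema (90.3% and 95.7%). These counts lie near the background, and no difference from it was tested. The median dREG score of the assigned peaks was 0.684, 0.817 and 1.029 in the 3 lists, beside 0.586, 0.572 and 0.532 for all peaks. The latter include peaks far from any start, and the median of promoter peaks alone was not computed. Of the assigned peaks 12 of 19, 11 of 16 and 10 of 14 overlapped coding sequence in the 3 lists. The share among all promoter peaks was not computed. In the retrogenes other than Utp14b the coding sequence starts 44 to 610 bp after the first TSS. A peak assigned for its closeness to a start can therefore reach it. Whether these counts are particular to the retrogenes was not tested.

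The distance limit sits among closely spaced peaks of the same genes. The farthest peak included was a Utp14b peak in leptonema/zygonema whose edge lay 951 bp from a start. Just outside lay a Pdha2 peak at 1005 bp in leptonema/zygonema and another at 1025 bp in pachynema, a Pgk2 peak at 1070 bp, a Utp14b peak at 1081 bp, and Rbmxl2 peaks at 1086 and 1096 bp.

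The 7 X-linked parents (Pgk1, Pdha1, Cetn2, Rpl10, Rbmx, Cstf2 and Utp14a) were examined beside their retrocopies. All 7 were called in each substage, and a peak covered a TSS of each in all 3 lists (53.1%, 52.2% and 41.8% of X-linked protein-coding genes). Of the 948 X-linked protein-coding genes 57% were called in leptonema/zygonema, 55.9% were in pachynema and 45.3% were in diplonema, and 42.7% in all 3. A call marks the position of an initiation signature in pooled cells and does not give its amount. The parents therefore cannot be compared with the retrogenes in transcription, only in score within a list.

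Within a list, the retrogene had a higher promoter score than its parent in 4 of 7 pairs in leptonema/zygonema, 4 of 7 in pachynema and 6 of 7 in diplonema. With Utp14b scored by the peak over its second start, which covers no start of Acsl3 but is near one, the counts were 3, 4 and 5 of 7. With every gene scored by the peak over a start, in pairs where both have one, they were 3 of 7, 3 of 6 and 5 of 6. Pgk2 and Pgk1 were nearly level in leptonema/zygonema (1.19 and 1.174). They stood at 1.269 and 1.049 in pachynema and at 1.311 and 0.74 in diplonema, so this pair had the widest gap in diplonema. Pgk1, the broadly expressed phosphoglycerate kinase, had its highest score 890, 810 and 590 bp after its first start, and the peak over its start had scores of 0.731, 0.779 and 0.422.

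Pdha2 and Rpl10l also scored above their parents in every list. For Pdha2 and Pdha1 the scores were 1.019 and 0.906, then 1.215 and 0.975, then 1.203 and 1.008 in leptonema/zygonema, pachynema and diplonema. This order rests on the Pdha2 peaks after the start. The peak over the start scored lower in Pdha2 (0.458) than in Pdha1 (0.906) in leptonema/zygonema, and in the later lists only Pdha1 had one (0.975 and 0.756). For Rpl10l and Rpl10 they were 1.224 and 1.067, then 1.177 and 1.112, then 1.084 and 0.636. The opposite order was seen for Rbmxl2, which scored below Rbmx in every list (0.986 and 1.179, 0.887 and 1.219, 0.988 and 1.124).

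The remaining pairs changed order between lists. Cstf2t scored below Cstf2 in leptonema/zygonema (1.227 and 1.412) and pachynema (1.179 and 1.342), and the 2 scores were almost equal in diplonema (1.136 and 1.133). Cetn1 was below Cetn2 in leptonema/zygonema (1.182 and 1.23) and above it in pachynema (1.413 and 1.178) and diplonema (1.319 and 1.213). The Cetn2 peak covers a start of its neighbour Nsdhl, a sterol synthesis gene, in all 3 lists, so initiation at Cetn2 and at Nsdhl cannot be told apart in it. Utp14b exceeded Utp14a in leptonema/zygonema and diplonema and not in pachynema (1.296 and 1.38), by the peak shared with Acsl3. By its second start it was below Utp14a in every list (0.526 and 1.224, 0.79 and 1.38, 0.981 and 0.99). Median ranks of the parents in the common set were 65.7, 67.3 and 70.7.

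**Figure D3:**
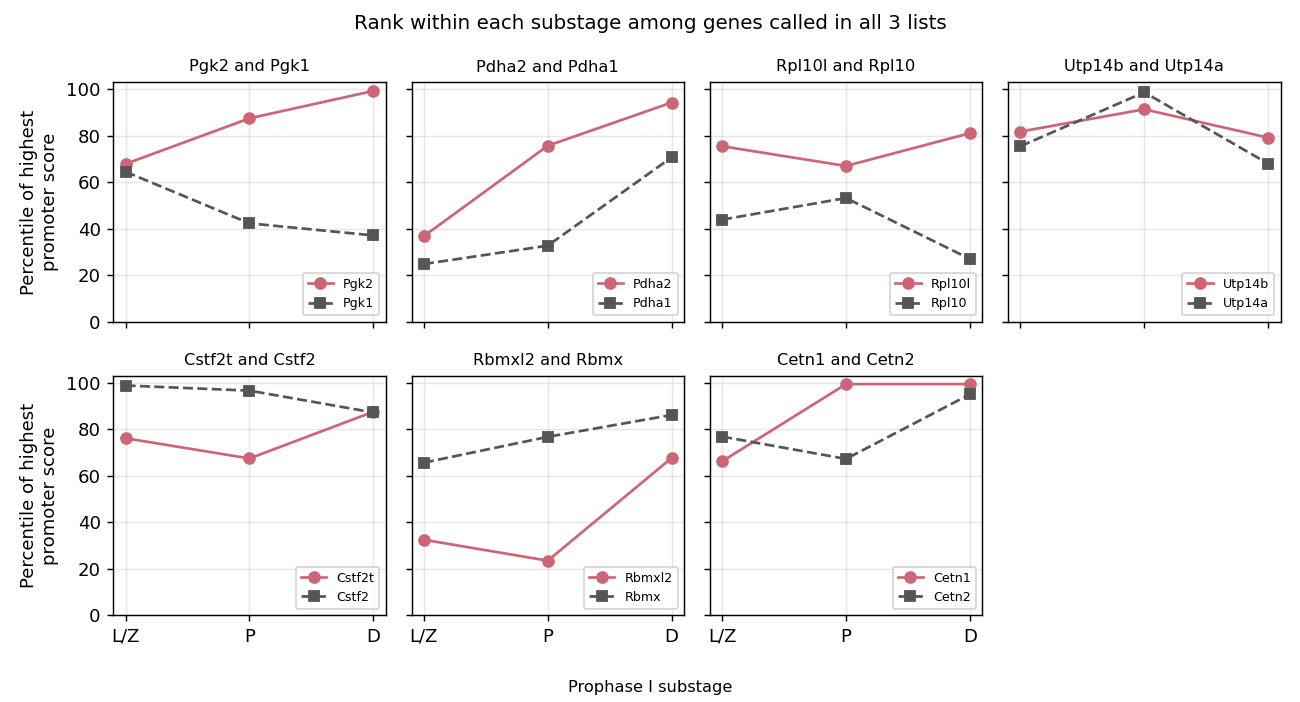
Percentile of the highest promoter score of each retrogene (circles, solid) and its X-linked parent (squares, dashed) in leptonema/zygonema (L/Z), pachynema (P) and diplonema (D), among the 10851 protein-coding genes called in all 3 lists. Each point is 1 pooled list and has no error. Pgk2 and Pgk1 separate to 99.3 and 37.1 in diplonema, and Rbmxl2 lies below Rbmx throughout.

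Reads of a retrocopy could be placed on its parent or on another copy where the sequences are identical, so the identity of the copies was measured. Coding sequences of retrogene and parent were identical at 84.7% of aligned bases for Rpl10l, 79.5% for Cetn1, 79.3% for Pgk2, 77.9% for Utp14b, 75.6% for Pdha2, 75.5% for Cstf2t and 68.1% for Rbmxl2. No 30-base word in any of the 49 retrogene peaks occurred in an annotated transcript of the parent. Against the assembled genome, on both strands, 34 of the 49 peaks had no repeated 30-base word, including every peak of Pgk2, Pdha2, Cetn1 and Utp14b.

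Repeated words were found in peaks of Rpl10l, Rbmxl2 and Cstf2t. Of the 30-base words in Rpl10l peaks 41.4% occurred elsewhere, with 26.9% to 27.5% for the peaks over the TSS and up to 70.8% for peaks further downstream. The most extensive other copy was Gm14460, a processed pseudogene on chromosome 2 (chr2:78512360-78513363), which shared 483 of the 1622 distinct words and had no dREG peak in any list. Among Rbmxl2 words 7.53% were repeated, and the largest other copy, with 119 of 2298 words, lies within Lims2, where 2, 2 and 1 peaks were called. The upstream pachynema peak of Cstf2t held 7.01% repeated words and the peaks over its start held none. The study describes its depth in uniquely mapped reads, and whether multiply mapped reads entered the peak calling is not given in the sources used here. Their part in the Rpl10l and Rbmxl2 scores was not tested.

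**Figure D4:**
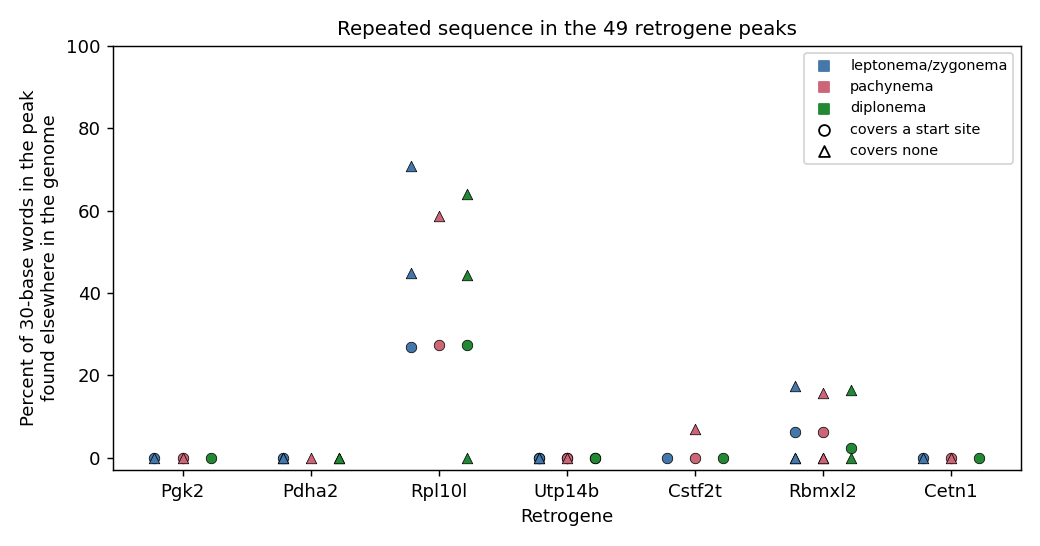
Percent of 30-base words in each of the 49 peaks that occur elsewhere on the assembled chromosomes, by retrogene (horizontal axis) and substage (colour), with circles for peaks that cover a start and triangles for the others. Rpl10l reaches 70.8%, its peaks over the start lie between 26.9% and 27.5%, and Pgk2, Pdha2, Utp14b and Cetn1 lie at 0.

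A list of 13 other autosomal retrocopies of X-linked genes gave the same picture of calls. All 13 (Rbmxl1, D1Pas1, Gk2, Gykl1, G6pd2, Prps1l1, Ubl4b, Rpl36al, Rpl39l, Mcts2, Zrsr1, Rps4l and Tktl2) were called in each substage, and a peak covered a TSS of 13, 12 and 12 of them. Among autosomal protein-coding genes 60.7%, 61.2% and 52.3% were called, and 57%, 57.4% and 48.6% had a covering peak. G6pd2, a glucose-6-phosphate dehydrogenase gene, lacked the covering peak in pachynema and diplonema, as Pdha2 did. Median ranks in the common set were 35.0, 47.5 and 75.8 over 12 of these genes (Rps4l is annotated as a pseudogene and was not ranked), below the medians of the 7 retrogenes in each list, a difference that was not tested. Gykl1, a glycerol kinase gene, ranked at 15.8, 42.3 and 95, and Prps1l1, a phosphoribosyl pyrophosphate synthetase gene, at 7.2, 31.8 and 75.2, which were the widest ranges of the 12 (79.2 and 68.0 points). The narrowest were those of Rpl39l (77.7, 84.2 and 86.0) and Tktl2 (72.5, 67.9 and 76.4), of 8.3 and 8.5 points. Zrsr1 was the only 1 of the 12 that ranked lowest in diplonema (34.6, 44.8 and 23.9). All starts of Rbmxl1, D1Pas1, Rpl36al and Zrsr1 lie under 1000 bp from a start of another gene, and the highest-scoring Rpl36al peak covers a start of Mgat2 in each list. With such starts left out, 9 of the 13 genes keep a start, and all 9 were called in each list. The part of neighbouring genes in the other calls and in these ranks was not tested.

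Protein-coding genes with the rank pattern most like each retrogene were sought by the summed difference in promoter percentile over the 3 substages. They were Zfand5 and Spesp1 for Pgk2 (2.57 and 3.11 points), Cabcoco1 and Coq4 for Pdha2 (2.97 and 4.73) and Mzt2 and Smc5 for Cetn1 (4.01 and 6.11). For Rpl10l they were Ttll4 and Tmem50b (2.21 and 3.12), for Rbmxl2 Myo5a and Gpx6 (3.64 and 4.39) and for Cstf2t Tnpo1 and Dcun1d3 (2.66 and 3.35). Acsl3 was at 0 points from Utp14b because both take their score from the same peak, and Stat2 followed at 1.04 points. The likeness rests on 3 values per gene and is given as a description.

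Markers of cell types were checked by the same promoter rule. Of 6 spermatocyte markers 5 were called in each list, and Mei1 was not called. Among called promoters of leptonema/zygonema, pachynema and diplonema the chromosome axis gene Hormad1 ranked at 90.4, 95.9 and 99.6, and the synaptonemal complex genes Sycp1 and Sycp3 at 83.1, 85.4 and 97.5 and at 47.7, 78.2 and 96.7. The recombinase gene Dmc1 ranked at 58.4, 27.1 and 18.3, and Spo11, which makes the double-strand breaks of meiosis, at 59.0, 52.8 and 54.1. The spermatocyte markers thus did not share 1 direction. Spermatogonial markers were called for 3 of 5 genes in every list, among which Kit ranked at 48.7, 46.9 and 4.9, Dmrt1 at 53.3, 54.2 and 3.9 and Zbtb16 at 30.4, 33.6 and 33.7, while Gfra1 and Nanos3 were not called. Spermatid markers were called for 4 of 5 genes in every list, where Tnp1 ranked at 42.1, 42.4 and 73.9 and Acrv1 at 93.1, 93.1 and 66.6. Prm1 and Prm2 shared a peak, which ranked at 19.6, 14.7 and 40.2, and Tnp2 was not called.

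Sertoli markers were called for 3, 4 and 4 of 5 genes, with highest scores of 0.925 (Gata4), 0.946 (Gata4) and 0.639 (Clu), and Amh was not called. Leydig markers were called for 0, 1 and 0 of 5 genes, the call being Cyp11a1 in pachynema (0.414), and macrophage markers for 0 of 3 in every list. Initiation at spermatogonial and spermatid genes within spermatocytes and within other cells of the fractions cannot be told apart in pooled lists. The part of other cells in the calls at the retrogenes was not tested.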

How the data were processed

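The 12 leChRO-seq libraries comprised 4 per substage. According to the labels and methods, the authors used PRINSEQ lite for PCR duplicates, cutadapt for adapters and BWA for mapping to mm10 with a ribosomal RNA unit added, and ran dREG at default settings on the merged libraries of a substage; its version is not given in the sources used here. The labels and methods differ on whether reads were single or paired. The authors deposited for each peak a dREG score, a p-value (all under 0.05, adjustment not stated, and listed as 0 for 29.4%, 27.8% and 24.1% of peaks in the 3 lists) and a centre position. The study gives a range of mapped depth over its assays together. It also lists a normalization factor for each leChRO-seq library, which combines library size with the relative transcriptional activity of the substage. These factors differ between libraries and were not used here. The part of depth in the list lengths and ranks was not tested. The reads behind each peak are not in the lists, so read-level intervals were not computed.

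Peaks were assigned to genes by a nearest edge under 1000 bp from any of 132721 GENCODE M21 starts. Scores were ranked within lists only. The genes named were the 7 retrogenes, their parents, neighbours under the same peaks or around them, 13 other retrocopies, markers, and the 2 genes with the nearest rank pattern. Gm14460 and Lims2 were named after the repeated words were seen. The members and lists were chosen with earlier results of these data known, and the ranks in the common gene set, the background of genes with 1 or 2 starts, the overlap of all promoter peaks, the repeated words and the sequence identities were added after the lists were examined. Coding sequences were aligned globally with Biopython 1.88. Sequences were read from RefSeq tables and the GRCm38.p6 genome with pysam 0.24.0. Python 3.11.15, numpy 2.4.6, pandas 2.3.3 and matplotlib 3.10.9 were used. The assignment of peaks and the highest score per gene were tested on simulated data, and the ranks were not. Groups were taken from the sample titles. Alternatives were other distances, TSS sets, score or p-value limits and lists of equal length. Scoring Utp14b by its second start, and every pair by peaks over a start, was added after the data were seen.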

Additional observations from a re-analysis of the deposited data

How the results depend on the processing

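Counts of called retrogenes, parents, other retrocopies, and autosomal and X-linked protein-coding genes were recomputed in each substage under 10 alternatives, which gave 150 values, each within 1.5 times the count reported. Called retrogenes numbered 6 or 7 in every list. Pdha2 dropped out in pachynema and diplonema when a peak had to cover the TSS, and Utp14b dropped out in all 3 lists when TSSs under 1000 bp from another gene's were left out, because it then has no TSS. Parents numbered 6 or 7, with Cetn2 lost in leptonema/zygonema under that same restriction. Other retrocopies numbered 9 to 13, and Rbmxl1, D1Pas1, Rpl36al and Zrsr1 had no TSS left under it. Scoring Utp14b by its second start, chosen after the data were seen, left 3, 4 and 5 of 7 retrogenes above their parents, against 4, 4 and 6. Scoring by the peak over a start, also chosen after the data were seen, left 3 of 7, 3 of 6 and 5 of 6. No paired analysis was possible because the peaks of a substage come from its 4 libraries merged, and leaving out a replicate could not be done either. The reads behind each peak are not in the lists, so an uncalled peak is not shown to be absent.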
